A study of Mus musculus with 6 samples.

Results

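The effector cytokine genes of helper T cells were followed in memory-phenotype CD4+ T cells of mice with acute clinical EAE (experimental autoimmune encephalomyelitis), in which T cells against myelin inflame the spinal cord. The 10 genes considered were Ifng, Il17a, Il17f, Csf2, Il22, Il2, Il3, Il10, Il13 and Il5. They were chosen by name for their known role, with earlier results of these data already known. The shares of all genes given beside their counts, and beside those of the other lists, are therefore a description and not a test. A probe set whose annotation names that gene and no other was required, which left 8 genes with 1 probe set each, out of 18194 genes on the array. Il17f had no such probe set and Il22 shares its probe set with Iltifb, so neither was analysed here. The tested cells came from the spinal cord (3 arrays), the inflamed tissue, and were set against cells of the draining inguinal lymph node (3 arrays). All mice were female C57BL/6 animals aged 8 to 10 weeks in which EAE had been induced with the myelin peptide MOG35-55, so neither tissue comes from an unimmunised animal. How many animals stand behind an array and which surface markers defined the memory phenotype are not given in the sources used here, so each p-value reflects only variation among these samples, part of which may be technical.

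CD4+ T cells divide their work by the cytokines they release. Type 1 helper cells make interferon-gamma, type 17 cells make IL-17A, IL-17F and IL-22, and type 2 cells make IL-4, IL-5 and IL-13. GM-CSF, encoded by Csf2, acts on myeloid cells and is required for full EAE in mice. IL-2 is a growth factor for T cells and sustains regulatory T cells, and IL-10 restrains inflammation. Several of these genes sit side by side in the mouse genome.

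The array values were taken as linear intensities after RMA, and log2 was used for every test. The 6 arrays had medians of 68 to 71. Of 11 measured T cell identity genes, among them Cd3e, Cd4 and Cd44, all were above the background bound (defined below) on every array. Their summed intensity was 56847 to 63799 in spinal cord, against 62389 to 72498 in lymph node. Limma called 0 of these 11, with 1 lower at an unadjusted p below 0.05, and 1 was called lower with the array number as a block (Trat1, an adaptor of the T cell receptor, block adjusted p = 0.0402). Precision is limited by the number of arrays (n = 3 per tissue). In bulk samples a change in the number of cells that make a transcript and a change in transcript per cell cannot be told apart.

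Because no detection calls were used here, background was set from 36 genes typical of liver, pancreas, heart, kidney, eye, germ cells and other tissues. The 90th percentile of their values over the 6 arrays was an intensity of 112.5, and 31 of the 36 genes lay below it on all arrays. On the same measure 43.1% of all genes lay below the bound on all 6 arrays. Probe sets differ in how strongly they bind, so the bound is approximate.

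Ifng, Il17a and Csf2 rose in spinal cord, and no cytokine gene of the 8 fell. The share called higher among all genes was 1.13% and the share called lower 1.41% (limma with Benjamini-Hochberg adjustment, adjusted p below 0.05). The count for the cytokine genes was 3 of 8 higher and 0 of 8 lower, with 4 higher and 0 lower at an unadjusted p below 0.05. The share of all genes at that unadjusted cut-off is not given here, so unadjusted counts, here and for the other lists, have no general rate beside them. Their median log2 change was 0.50, against 0.00 over all genes. Il2 was above the bound in both tissues and was not called, and Il3, Il10, Il13 and Il5 stayed below the bound on all 6 arrays.

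**Figure D1:**
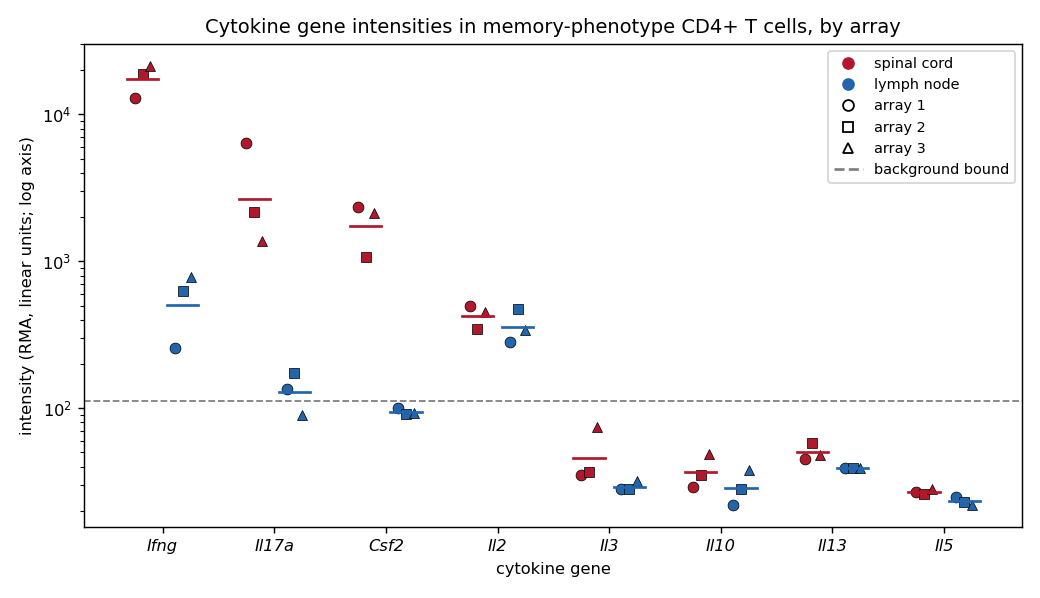
Intensity of 8 cytokine genes on each array (linear RMA units on a log axis), with spinal cord in red and lymph node in blue. Symbols mark the array number, short lines the mean of log2 values and the dashed line the background bound of 112.5. Spinal cord lies above lymph node by more than the spread of arrays for Ifng, Il17a and Csf2, while Il3, Il10, Il13 and Il5 lie below the bound throughout.

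Ifng encodes interferon-gamma, which activates macrophages and induces antigen presentation. It read 12905, 18966 and 21388 in spinal cord arrays 1, 2 and 3, against 258, 628 and 781 in lymph node arrays 1, 2 and 3. The lowest spinal cord array was far above the highest lymph node array, and array 1 was the lowest of its tissue in both. The log2 change was 5.11 ± 0.44 (SE), a 34.6-fold difference with a 95% interval of 4.03 to 6.19 on the log2 scale and an adjusted p of 0.00777 by limma. The log2 means were 14.08 ± 0.38 in spinal cord and 8.97 ± 0.85 in lymph node (SD, n = 3 each; values tested by limma). Of 18194 genes ranked by log2 change, Ifng stood in place 4.

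Il17a encodes IL-17A, which makes stromal and epithelial cells release chemokines that draw in neutrophils. It read 6420, 2152 and 1378 in spinal cord, against 135, 173 and 90 in lymph node. The tissues did not overlap, and lymph node array 3 lay below the background bound. Within spinal cord, array 1 stood well above the other 2. The log2 change was 4.38 ± 0.59 (SE), a 20.8-fold difference with a 95% interval of 2.96 to 5.81 on the log2 scale and an adjusted p of 0.0219 by limma. This call was less stable than the others under removal of single arrays: it held in 2 of 6 fits. The adjusted p was 0.0703, 0.0927 and 0.0774 without lymph node arrays 1, 2 and 3, and 0.0911 without spinal cord array 2.

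Csf2 read 2335, 1078 and 2142 in spinal cord, against 101, 91 and 93 in lymph node. All lymph node arrays lay below the background bound, so the difference is given as at least 15.6-fold higher in spinal cord, taken against that bound. The fitted log2 change was 4.21 ± 0.30 (SE), with a 95% interval of 3.47 to 4.95 and an adjusted p of 0.00513 by limma. Csf2 was called whichever array was dropped, in 6 of 6 fits (adjusted p at most 0.0414), and Ifng in 5 of 6, its adjusted p reaching 0.0516 without spinal cord array 2.

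The titles carry numbers 1 to 3 within either tissue, and same-numbered arrays deviated together, so ratios within a number are given as well. For Ifng these ratios were 50.02, 30.2 and 27.4 in numbers 1, 2 and 3. For Il17a they were 47.6, 12.4 and 15.3, and for Csf2 23.1, 11.8 and 23.0. Every ratio was above 10, and number 1 gave the highest for each of the 3 genes. With the number as a replicate block 3.67% of all genes were called higher and 7.44% lower, and the same 3 cytokine genes were called. Their adjusted p-values under that block were 0.000587 for Ifng, 0.00336 for Il17a and 0.00108 for Csf2 (limma). A fit over all 34958 probe sets that name 1 gene called 0.701% higher, again with 3 of the 8 cytokine probe sets among them.

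**Figure D2:**
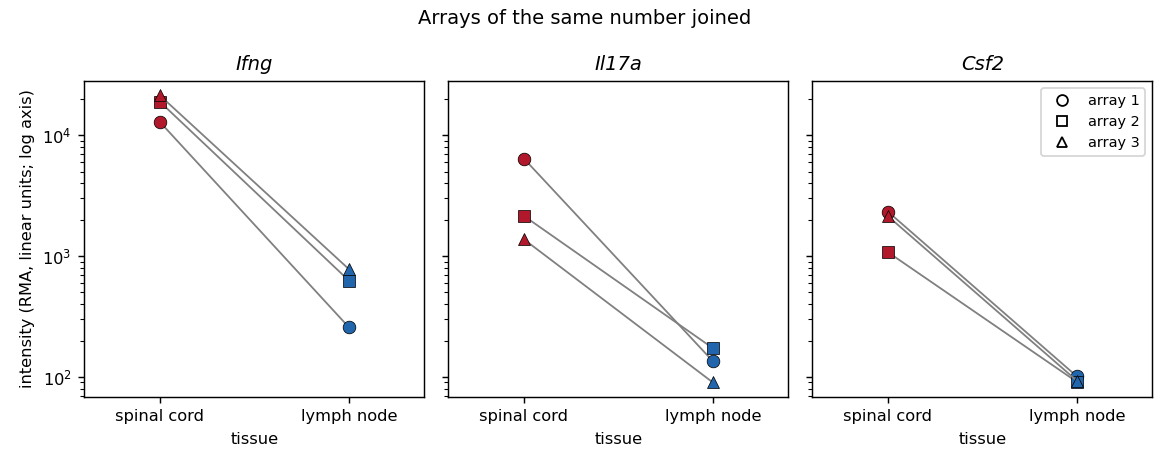
Intensity (linear RMA units, log axis) of Ifng, Il17a and Csf2 in spinal cord and lymph node, with lines joining arrays of the same number. All 9 lines run from a higher spinal cord value to a lower lymph node value, and within spinal cord array 1 is the lowest for Ifng and the highest for Il17a and Csf2.

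Within spinal cord the 3 cytokines ranked the arrays differently. Array 1 had the highest Il17a and the lowest Ifng, and array 2 had the lowest Csf2. The log2 difference of Ifng minus Il17a was 1.01, 3.14 and 3.96 in spinal cord arrays 1, 2 and 3, against 0.93, 1.86 and 3.12 in lymph node. Its mean differed between tissues by 0.73, less than the SD of 1.52 in spinal cord and 1.10 in lymph node (n = 3 each; exact permutation p = 0.5, two-sided; adjusted p = 0.5 over 3 pairs of genes). Within numbers 1, 2 and 3 the tissue differences were 0.07, 1.28 and 0.84, all positive. A paired exact permutation test of these 3 differences by sign flips, added after seeing the data, gave p = 0.25, the smallest value it allows (two-sided). A larger tissue change of Ifng than of Il17a was thus present in 3 of 3 numbers but passed no test in a design of this size.

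Promoter windows of the 3 cytokine genes that rose are shown because these genes moved together and because binding sites for T cell factors near the start site are a known feature of cytokine genes. They run from 250 bases before to 50 after the start site, 5′ to 3′ on the gene's strand, as given by RefSeq for build GRCm38.p6. Capitals mark matches, on either strand, to 5 motifs. These were GGAAA (the core bound by NFAT), TGANTCA (AP-1), AGGTCA (a core site of nuclear receptors), GGTGTGA (a core site of T-box factors such as T-bet) and TATAAA (the TATA box). The windows lie at chr10:118440796-118441095 (plus strand) for Ifng, chr1:20730655-20730954 (plus strand) for Il17a and chr11:54249850-54250149 (minus strand) for Csf2.
Ifng: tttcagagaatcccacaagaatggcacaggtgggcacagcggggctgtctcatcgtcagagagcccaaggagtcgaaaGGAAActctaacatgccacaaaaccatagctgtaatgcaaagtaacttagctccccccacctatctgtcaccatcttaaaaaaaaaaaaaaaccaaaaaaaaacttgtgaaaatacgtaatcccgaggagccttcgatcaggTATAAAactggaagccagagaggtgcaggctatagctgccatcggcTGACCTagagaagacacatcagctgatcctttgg
Il17a: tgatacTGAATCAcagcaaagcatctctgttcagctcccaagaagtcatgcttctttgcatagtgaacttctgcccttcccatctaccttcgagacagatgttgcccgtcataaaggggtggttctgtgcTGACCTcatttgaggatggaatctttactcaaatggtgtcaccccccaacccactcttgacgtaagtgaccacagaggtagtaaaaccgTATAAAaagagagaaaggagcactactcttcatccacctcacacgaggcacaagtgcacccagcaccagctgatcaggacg
Csf2: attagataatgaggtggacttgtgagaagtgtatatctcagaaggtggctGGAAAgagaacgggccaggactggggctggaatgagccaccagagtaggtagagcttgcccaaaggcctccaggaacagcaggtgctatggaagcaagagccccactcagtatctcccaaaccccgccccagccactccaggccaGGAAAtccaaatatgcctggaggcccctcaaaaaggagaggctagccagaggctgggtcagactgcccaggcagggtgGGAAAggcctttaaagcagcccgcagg

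Ifng had a TATA box match from 30 to 25 bases before the start site (positions -30 to -25), 1 NFAT core at -172 to -168 and a nuclear receptor core, on the other strand, at 16 to 21. Il17a had a TATA box match at -31 to -26, an AP-1 match at -244 to -238 and a nuclear receptor core, on the other strand, at -120 to -115. Csf2 had 3 NFAT cores and no match to the other 4 motifs. Among all 32544 distinct promoter windows 61.5% held GGAAA, 7.79% TGANTCA, 16.2% AGGTCA, 3.95% GGTGTGA and 13.6% TATAAA. Of the 9 listed cytokine genes with a window in the table, 8 held GGAAA, 6 TATAAA, 4 AGGTCA, 1 TGANTCA and 0 GGTGTGA. Windows of cytokines that rose and of those that stayed at background both held these letters: Il13 had 4 NFAT cores and 2 overlapping TATA matches, and Il5 had 2 NFAT cores. Il10 had no entry in the table.

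**Figure D3:**
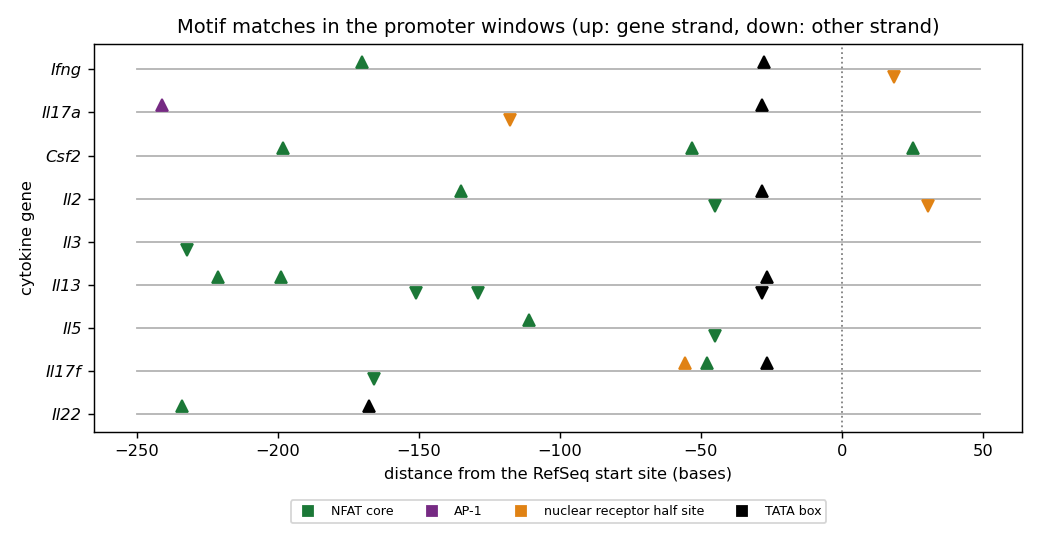
Positions of motif matches in the promoter windows of 9 cytokine genes, by distance in bases from the RefSeq start site, with triangles pointing up for the gene's strand and down for the other. Single TATA box matches of Ifng, Il17a, Il17f and Il2 and the overlapping pair of Il13 lie close before the start site, and NFAT core matches occur in 8 of the 9 windows.

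Il2 was above the bound on all arrays and was not called. It read 498, 346 and 453 in spinal cord, against 282, 477 and 341 in lymph node, and the tissues overlapped. The log2 change was 0.26 ± 0.24 (SE), with a 95% interval of -0.33 to 0.84 and an adjusted p of 0.728 by limma. A change of more than 0.84 upward on the log2 scale therefore lies outside the interval. Its ratios within numbers 1, 2 and 3 were 1.77, 0.725 and 1.33, so number 2 ran the other way. A second probe set that names Il2 together with Ntan1 was not used.

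The remaining 4 cytokines read below the bound on every array, with values between the percentiles 15.6 and 50.8 of all probe sets. Il3, which encodes a growth factor for mast cells, basophils and blood progenitors, read 35, 37 and 74 in spinal cord, against 28, 28 and 32 in lymph node (log2 change 0.64 ± 0.30, adjusted p = 0.417 by limma). Spinal cord array 3 accounts for most of that difference, and without it the log2 change was 0.30. Il10 read 29, 35 and 49 in spinal cord, against 22, 28 and 38 in lymph node, with overlapping tissues (0.36 ± 0.27, adjusted p = 0.654). The type 2 cytokine gene Il13, which encodes a driver of mucus production and of alternative macrophage activation, read 45, 58 and 48 in spinal cord, against 39, 39 and 39 in lymph node (0.36 ± 0.13, adjusted p = 0.284). Il5, the growth factor gene for eosinophils, read 27, 26 and 28 in spinal cord, against 25, 23 and 22 in lymph node (0.21 ± 0.11, adjusted p = 0.470).

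All 4 had positive changes, and for Il3, Il13 and Il5 the tissues did not overlap although every value was below the bound. With Ifng, Il17a and Csf2 this made 6 of 8 genes whose spinal cord arrays all lay above lymph node, against 8.81% of all genes. Among the off-tissue genes, used here as a measure of empty signal, 2 of 36 had all spinal cord arrays above lymph node. Their change was positive in 27 of 36, with a median of 0.06. Under the replicate block the adjusted p-values were 0.107 for Il3, 0.0931 for Il10, 0.138 for Il13 and 0.311 for Il5. Expression of these 4 genes below the sensitivity of their probe sets would not be seen here.

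**Figure D4:**
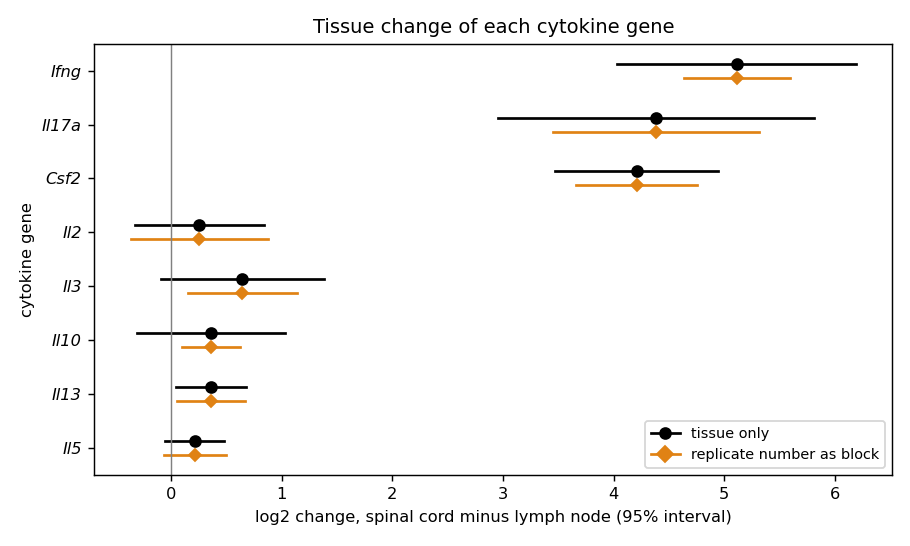
Log2 change of each cytokine gene, spinal cord minus lymph node, with 95% intervals from the fit on tissue alone (black) and with replicate number as a block (orange). Ifng, Il17a and Csf2 lie between 4.21 and 5.11, and the other 5 between 0.21 and 0.64.

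Neighbouring cytokine genes were compared in their tissue change. Csf2 and Il3 are adjacent on chromosome 11 in the RefSeq gene order of GRCm38.p6. The log2 difference of Csf2 minus Il3 was 6.06, 4.86 and 4.86 in spinal cord, against 1.85, 1.70 and 1.54 in lymph node. The tissue changes of these 2 genes thus differed by 3.56, with no overlap, and an exact permutation test, two-sided, returned p = 0.1, which is as low as 3 arrays per tissue permit (adjusted p = 0.3 over 3 pairs of genes). Both Csf2 in lymph node and Il3 in both tissues lay below the bound. Setting such values to the bound gave a difference of 3.96. Il3 then has the same value on every array, so this is the change of Csf2 alone.

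Il13 lies next to Il4, and Il5 lies beyond Rad50 on the same chromosome 11. The log2 difference of Il13 minus Il5 averaged 0.89 in spinal cord and 0.74 in lymph node, a difference of 0.15 (exact permutation p = 0.5, two-sided; adjusted p = 0.5). Il4, the lead cytokine of type 2 cells, read 29, 24 and 34 in spinal cord, against 176, 157 and 545 in lymph node. It was at least 2.20-fold lower in spinal cord against the bound, with a fitted log2 change of -3.10 ± 0.49 (SE) and an adjusted p of 0.0359 by limma, and its call held in 1 of 6 fits with an array dropped (adjusted p up to 0.144). Next to Il2 on chromosome 3 lies Il21, which encodes a helper cytokine for B cells. Il21 read 367, 330 and 324 in spinal cord, against 968, 1623 and 2516 in lymph node (log2 change -2.22 ± 0.34, adjusted p = 0.0332), with a call in 2 of 6 such fits (adjusted p up to 0.145). With the mean of all its probe sets Il21 missed the threshold (-1.73, adjusted p = 0.0526). Whether the changes of Il21 and Il2, or of Il4 and Il13, differ from each other was not tested.

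The other cytokine ligands did not follow Ifng, Il17a and Csf2 as a class. Of 35 measured, 1 rose, 3 fell and 31 were not called, with a median log2 change of 0.07, and 19 of them lay below the bound on all 6 arrays. Tnf, an inflammatory cytokine gene, was the 1 that rose, at 3532, 1945 and 1682 in spinal cord, against 774, 498 and 470 in lymph node (3.995-fold, adjusted p = 0.0439 by limma). Dropping any one array ended the call for Tnf (adjusted p up to 0.179). Ebi3, a subunit gene of IL-27 and IL-35, fell along with Il4 and Il21. It was called in 3 of 6 fits with an array dropped (adjusted p up to 0.0781), reading 341, 224 and 288 in spinal cord, against 930, 937 and 1472 in lymph node (log2 change -1.96 ± 0.25, adjusted p = 0.0180). Lta, the lymphotoxin gene, missed the threshold (1.44 ± 0.30, adjusted p = 0.0761; 0.00443 with the block). Il9, the cytokine gene of type 9 cells, read 126, 130 and 126 in spinal cord, against 126, 110 and 138 in lymph node (0.04 ± 0.12, adjusted p = 0.940). With the block 4 of these genes were higher and 4 lower.

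Among 18 measured receptor chains for the 8 cytokines and for IL-17F and IL-22, only Il2ra was called. Il2ra encodes the high-affinity chain of the IL-2 receptor, and it read 1483, 1699 and 1377 in spinal cord, against 484, 321 and 245 in lymph node (4.50-fold, log2 change 2.17 ± 0.26, adjusted p = 0.0155 by limma). With single arrays dropped, the Il2ra call held in 2 of 6 fits (adjusted p up to 0.0900). The interferon-gamma receptor chain gene Ifngr1 had a log2 change of 1.76 ± 0.33 that missed the threshold (adjusted p = 0.0581; 0.00345 with the block). Il10ra, of the IL-10 receptor, had a change of -0.79 ± 0.26 (adjusted p = 0.242). Csf2rb, the signalling chain for GM-CSF, IL-3 and IL-5, read 39, 369 and 45 in spinal cord, against 28, 30 and 27 in lymph node. Much of its difference came from spinal cord array 2, and without that array the log2 change was 0.57. Over all arrays its log2 change was 1.61 ± 0.85 with the probe set used and 0.94 with the mean of its probe sets. The list median was 0.03, 7 of its members lay below the bound on all arrays, and 3 were higher with the block.

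Of 26 measured transcription factors that act on these cytokine genes, 4 rose and 0 fell, with 3 lower at an unadjusted p below 0.05 and a list median of 0.02. Tbx21 encodes T-bet, which drives Ifng in type 1 cells. It read 1688, 1826 and 1477 in spinal cord, against 384, 427 and 372 in lymph node (4.21-fold, log2 change 2.07 ± 0.13, adjusted p = 0.00365 by limma). Bhlhe40, a factor that promotes Csf2 and represses Il10 in mouse T cells, read 15404, 17706 and 13455 in spinal cord, against 1464, 1397 and 1868 in lymph node (9.87-fold, 3.30 ± 0.17, adjusted p = 0.00191). Both were called in 6 of 6 fits without a single array.

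Nfil3 read 1234, 922 and 877 in spinal cord, against 169, 126 and 104 in lymph node (7.67-fold, adjusted p = 0.00568 by limma), and was also called in 6 of 6 such fits. Nfkbiz, which promotes Il17a in mouse T cells, rose 3.49-fold (adjusted p = 0.0351) but this call ended when any one array was dropped and with the mean of its probe sets (adjusted p = 0.0538). Gata3, which directs type 2 cells, gave -0.05 ± 0.65 on the log2 scale (adjusted p = 0.989), and single arrays turned its sign. Maf, which promotes Il10 and Il21, read 4103, 4796 and 2584 in spinal cord, against 5084, 8608 and 5639 in lymph node (-0.76 ± 0.30, adjusted p = 0.335). With the block 8 factors were higher and 3 lower.

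Receptors for the cytokines that steer helper cells gave 1 call among 12 measured. Il6st, the shared chain of the IL-6 receptor family, fell, with a log2 change of -3.93 ± 0.27 (SE) and an adjusted p of 0.00482 by limma. It read 166, 292 and 270 in spinal cord, against 4588, 3440 and 2920 in lymph node, and was called in 6 of 6 fits without a single array. Its probe sets differed, and their mean gave a log2 change of -2.46, still called. Il12rb2, the inducible chain of the IL-12 receptor, read 102, 41 and 48 in spinal cord, against 33, 24 and 26 in lymph node, all below the bound (log2 change 1.10 ± 0.36, adjusted p = 0.232; 0.0246 with the block). Il1r1, a receptor gene for IL-1, had a change of 0.41 ± 0.29 (adjusted p = 0.619). With the block 2 of the 12 were higher and 3 lower.

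Transcripts that interferon-gamma or IL-2 family signals are known to induce gave 5 calls among 18 measured, all higher in spinal cord, with 0 lower also at an unadjusted p below 0.05 and a median log2 change of 0.58. Cish and Socs2, feedback inhibitors induced through STAT5, rose 6.83-fold (adjusted p = 0.0148 by limma) and 6.57-fold (0.00818). The probe sets of Socs2 differed, and their mean gave a log2 change of 1.18, against 2.72 with the probe set used, still called. Cish read 9692, 6547 and 6087 in spinal cord, against 1667, 838 and 868 in lymph node. Cxcl10, a chemokine gene induced by interferons, read 764, 717 and 785 in spinal cord, against 205, 126 and 139 in lymph node (4.93-fold, adjusted p = 0.00777). Pim1, a kinase gene, rose 2.78-fold and Cd274, which encodes PD-L1, 1.92-fold. The remaining 13 genes were not called, among them Irf1 (log2 change 0.84) and Gbp2 (0.86). In all, 15 of the 18 had positive changes, while Psmb8 (-0.17), Psmb9 (-0.30) and Tap1 (-0.11) had negative ones. Without single arrays Cxcl10 was called in 6 of 6 fits, Socs2 in 5, Cish in 2, Pim1 in 1 and Cd274 in 0. Il2 itself did not pass the test, as given above.

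**Figure D5:**
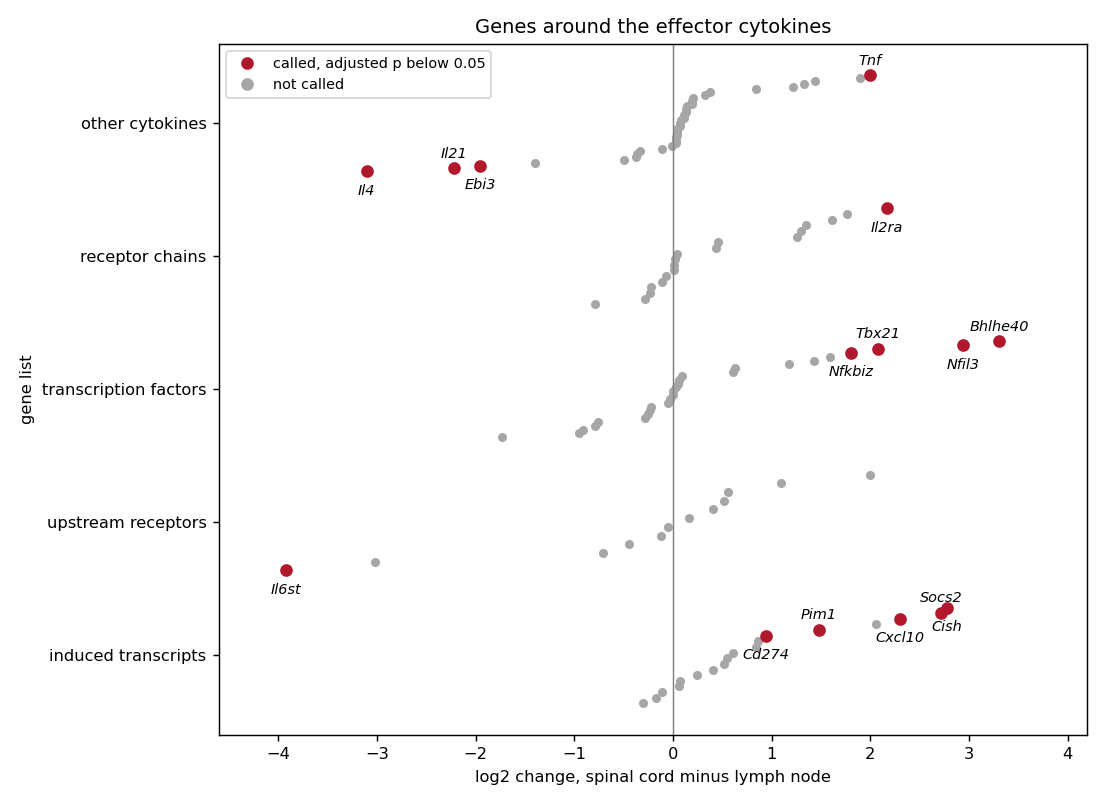
Log2 change (spinal cord minus lymph node) of every measured gene in 5 lists around the effector cytokines, with called genes in red and named and the rest in grey. Called genes lie on the higher side for receptor chains, transcription factors and induced transcripts, on the lower side for upstream receptors, and on both sides for the other cytokine ligands.

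Over these 5 lists together 109 genes were measured, of which 11 were called higher and 4 lower. With the block the counts were 24 and 10. Among all genes 1.13% were called higher and 1.41% lower, and 3.67% and 7.44% with the block. The same shares apply to the counts of the single lists above. Dropping spinal cord array 1, 2 or 3 left 7, 4 or 7 genes called higher and 2, 1 or 1 called lower. Dropping lymph node array 1, 2 or 3 left 8, 5 or 6 called higher and 3, 1 or 5 called lower. The share of all genes called in these smaller fits is not given here. A loss of calls particular to the listed genes therefore cannot be told from a general one.

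Outside the cytokine genes, the transcripts with the most similar pattern were found by the root mean square difference of log2 values, each gene centred on its mean over the 6 arrays. For Csf2 these were Plac8 (0.363), Sv2c (0.379) and the cell cycle inhibitor gene Cdkn1a (0.403). Plac8 read 11380, 6880 and 7258 in spinal cord, against 346, 278 and 370 in lymph node. For Ifng they were AA467197 (0.596), the orphan nuclear receptor gene Nr4a2 (0.653) and Plac8 (0.719), and for Il17a Plac8 (0.615), the lectin receptor gene Klrb1b (0.629) and Gm36723 (0.630). Among the cytokines themselves Il17a was closer to Csf2 (0.701) than to Ifng (1.14), and Ifng differed from Csf2 by 0.848. All of these measures are dominated by the tissue difference that the genes share.

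Other cells that make or respond to these cytokines were followed by their markers. Macrophage, monocyte and microglia genes summed to 7301, 14514 and 7626 in spinal cord arrays 1, 2 and 3, against 2693, 3435 and 2939 in lymph node. Ccr2, a chemokine receptor gene that T cells also express, made up much of these sums, and without it they were 1709, 7700 and 4381 in spinal cord, against 939, 951 and 1067 in lymph node. All 19 measured members had positive changes, with a median of 1.31. Limma called 0 of them over all genes, 17 were higher at an unadjusted p below 0.05, and 10 were called with the block. C1qb, a complement gene of macrophages and microglia, read 42, 176 and 150 in spinal cord, against 13, 14 and 12 in lymph node (log2 change 3.00 ± 0.54, adjusted p = 0.0519 by limma). Spinal cord array 2, the highest for this list, was the lowest of its tissue for Csf2, and it was the middle one for Ifng and Il17a. Without that array the log2 changes were 5.05 for Ifng, 4.54 for Il17a and 4.56 for Csf2. Their adjusted p-values in that fit were 0.0516, 0.0911 and 0.00698 by limma, so only Csf2 was called. Spinal cord arrays 1 and 3 also lay above every lymph node array in these sums, so dropping array 2 does not remove the signal of this list. A link between this list and the cytokine changes was not tested. The neutrophil list summed to 575, 2307 and 849 in spinal cord arrays 1, 2 and 3, against 602, 436 and 461 in lymph node. Its spinal cord array 1 thus lay within the lymph node range. All 10 measured members had positive changes, with a median of 0.66, and limma called 0. Of the 10 members 4 lay below the bound on all arrays.

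For natural killer cells, which also make interferon-gamma, the defining receptor gene Ncr1 lay below the bound on every array, at 51 to 64 in spinal cord, against 50 to 60 in lymph node. The list of 5 summed to 465, 1002 and 1727 in spinal cord, against 292, 691 and 1516 in lymph node, sums that rest on Gzma and Eomes, whose changes had opposite signs. Of 9 listed genes only these 5 were measured. Of the 5 genes 3 lay below the bound on all arrays and 4 had positive changes. Limma called 0, with 2 higher at an unadjusted p below 0.05, Gzma and Klre1. The granzyme gene Gzma read 309, 806 and 1321 in spinal cord, against 83, 201 and 247 in lymph node (log2 change 2.11 ± 0.64, adjusted p = 0.198 by limma; 0.00188 with the block). Eomes, a T-box factor gene of natural killer and CD8 T cells, read 52, 93 and 306 in spinal cord, against 113, 406 and 1185 in lymph node (-1.73 ± 1.00, adjusted p = 0.534; 0.00900 with the block). Cd8a and Cd8b1, which mark CD8 T cells, ranged over 116 to 225 in spinal cord, against 118 to 186 in lymph node. Of 8 listed genes of gamma-delta and natural killer T cells, which also make IL-17A, only 3 were measured. These 3 lay below the bound on all arrays, and the unmeasured genes leave the presence of such cells largely unassessed. Among mast cell and basophil genes 8 of 9 lay below the bound on all arrays. The B cell list summed to 1494 to 2040 in spinal cord, against 5926 to 9115 in lymph node, with 2 of 9 members lower, Ighm and Cd22. Ighm carried most of it, and without Ighm the sum was 374 to 397 in spinal cord, against 968 to 1028 in lymph node. Of the 9 genes 6 lay below the bound on all arrays and 4 had positive changes, with a median of -0.10. The part of any of these cells in the cytokine results was not tested.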

How the data were processed

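Per the labels' protocols, RNA was purified on columns, and 1 ng was amplified in 2 cycles into biotinylated cRNA. The deposited intensity values came from RMA, per the submitters' processing notes, and were whole numbers on a linear scale. The RMA version and any pooling are not given in the sources used here. Such amplification may raise the spread of low values.

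Probe sets were named by the platform annotation: 34958 of 45101 named 1 gene, and 34754 of these matched the RefSeq gene table of GRCm38.p6. For each gene the probe set with the highest mean log2 value entered a two-sided limma test (version 3.58.1, R 4.3.3) of its log2 values, modelled by tissue alone. P-values were Benjamini-Hochberg adjusted over 18194 genes. Of 5 planned pairs of cytokines, 3 had both members measured. Python 3.11.15 and scipy 1.17.1 gave the exact tests, and the fit was tested on simulated data. The cytokine genes and lists were chosen with earlier results of these data known. The naming rule took every cytokine gene, up to 6 called genes of each list (or the 2 with the lowest p where none was called), a set of related genes and 3 similar genes per called cytokine; of lists of other cell types only some of these are given. Ncr1, Eomes, Ccr2, Irf1, Gbp2, Psmb8, Psmb9, Tap1 and the T cell identity genes stand outside it, picked with their values known. The alternatives were a replicate block, single arrays left out, filters, other normalizations, variance models, probe set choices and background bounds.

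No array was a copy of another, since at least 93.55% of probe sets differed between any 2 arrays. Deviations from the tissue means correlated at 0.576, 0.509 and 0.777 for same-numbered arrays and at -0.569 to 0.00503 for others, across genes that are not independent. The pairing rests on this and not on the labels. Centring within tissues builds part of that contrast in.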

Additional observations from a re-analysis of the deposited data

How the results depend on the processing

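The directions of Ifng, Il17a and Csf2 held under every alternative run. The number of cytokine genes called higher was 1 to 3 when single arrays were left out, and 0 were called lower in every fit. It was 0 when values below the background bound were set to it, an alternative that gives 7843 genes the same value on all arrays; chosen after seeing the data, the same fit without those genes called 3. In the replicate block, also chosen after seeing the data, leaving out both arrays of number 1 kept 3 calls and leaving out those of number 2 or 3 gave 0, with 4 arrays in the fit. The block over all arrays called 24 of 109 listed genes higher and 10 lower, against 3.67% and 7.44% of all genes. Leaving out single arrays gave 4 to 8 listed genes higher and 1 to 5 lower. For the fits with fewer arrays the share of all genes called is not given here, so their counts have no general rate beside them. The number of cytokines at background was 0 in each tissue with the 20th percentile of all values as bound, and 1 in spinal cord and 2 in lymph node with the median of the off-tissue genes. With the highest median of an off-tissue gene (536) it was 5 in spinal cord and 7 in lymph node, and Il2 was then at background in both. Gata3 turned positive with quantile normalization (0.0891), array weights (0.17) and without some single arrays (range -0.66 to 0.43), Il9 turned negative without lymph node array 2 (range without single arrays -0.0506 to 0.113), and Il2 turned to -0.0267 in the block without number 1. Without single arrays the tissue difference was 3.16 to 3.77 for Csf2 minus Il3, 0.0142 to 0.22 for Il13 minus Il5 and 0.10 to 1.58 for Ifng minus Il17a. The causes of these shifts were not tested. No read depth exists for arrays. The planned pairs of Il17a with Il17f and of Ifng with Il22 were not run, and Il13 minus Il5 gave no value with values set to the bound. Signal near background limits Il3, Il10, Il13 and Il5.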

Other observations

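Further ligand genes, named after their values were seen, differed between tissues without passing the threshold. Lif, which encodes leukemia inhibitory factor of the IL-6 family, read 751, 504 and 348 in spinal cord, against 182, 149 and 94 in lymph node (log2 change 1.90 ± 0.36, adjusted p = 0.0596 by limma; 0.00145 with the block). Csf1, the macrophage growth factor gene, read 434, 484 and 291 in spinal cord, against 223, 178 and 123 in lymph node (1.22 ± 0.29, adjusted p = 0.111; 0.00653 with the block). Il16, a chemoattractant gene of lymphocytes, ran the other way at 4171, 3339 and 1867 in spinal cord, against 9191, 8764 and 5922 in lymph node (-1.40 ± 0.34, adjusted p = 0.116; 0.00480 with the block).

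Receptor genes beside Il6st and Il12rb2, also named after their values were seen, were Il6ra and Il18rap. Il6ra, the IL-6 binding chain, read 97, 76 and 65 in spinal cord, against 1209, 834 and 254 in lymph node. All spinal cord values lay below the background bound, so Il6ra was at least 5.64-fold lower there against that bound (fitted log2 change -3.02 ± 0.57, adjusted p = 0.0606 by limma; 0.00655 with the block). Il18rap, of the IL-18 receptor, read 4905, 6997 and 2593 in spinal cord, against 937, 1453 and 1037 in lymph node (1.99 ± 0.38, adjusted p = 0.0634; 0.00718 with the block).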
